A study of Mus musculus with 8 samples.

Results

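Ccl2, Ccl7, Ccl8 and Ccl11 are 4 genes for small secreted CC chemokines, and they are described here in stromal cells of the mouse small intestine. They were taken by name from a count table of 53801 genes. All 4 passed the filter on low counts, as did 15643 genes in all. The data are 8 RNA-seq libraries of sorted cells that carried YFP and lacked the leukocyte marker CD45 and the endothelial marker CD31. Of these, 4 were labelled as cells sorted without and 4 as cells sorted with PDGFRα, a platelet-derived growth factor receptor found on many intestinal fibroblasts. Both fractions came from mice named LTβRfloxPDGFRα/YFP, so both share the floxed lymphotoxin β receptor gene and the reporter. The labels name no Cre driver, age or treatment and do not say whether libraries came from separate mice, so p-values measure the spread between these libraries only, which may be partly technical. Libraries with the same replicate number from 1 to 4 occur in each fraction. Whole libraries held 12926651 to 35115771 counts. Levels are CPM, each count relative to its library total after TMM scaling, and are given as mean ± SD with n = 4 libraries per fraction. RNA of the sorting target did not separate the fractions: mean Pdgfra was 652 ± 124 CPM for PDGFRα- and 597 ± 69.2 CPM for PDGFRα+ (log2 fold change -0.13, edgeR adjusted p = 0.971), so fractions are named by their sort labels.

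CC chemokines bind heparan sulfate and G protein-coupled receptors and draw leukocytes along their gradients. CCL2 and CCL7 act on CCR2 and draw inflammatory monocytes out of the bone marrow and into tissue. CCL11, called eotaxin, acts on CCR3 and is the main signal that brings eosinophils to the resting gut. Mouse CCL8 acts on CCR8 as well. Fibroblasts and other stromal cells are a known source of such chemokines in tissue.

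The genes lie within 81229 bases of each other on the forward strand of chromosome 11 (GRCm38). Ccl2 (ENSMUSG00000035385) spans 82035571 to 82037453, Ccl7 (ENSMUSG00000035373) 82045712 to 82047525, Ccl11 (ENSMUSG00000020676) 82057823 to 82062955 and Ccl8 (ENSMUSG00000009185) 82115185 to 82116799. Only Ccl12 of the CC chemokine genes lies between them, and it had 2 counts in all 8 libraries together. No exon of the 4 genes overlaps an exon of another gene in GENCODE M21. The stretch that gives the family its name is printed here from the GENCODE transcripts, because it is what these genes share, while their counts must be told apart by the bases around it. Capitals mark the adjacent pair of cysteine codons, which lie in exon 2 of 3 in each gene, at 82036506 to 82036511, 82046538 to 82046543, 82116056 to 82116061 and 82061696 to 82061701 in the order printed.
Ccl2: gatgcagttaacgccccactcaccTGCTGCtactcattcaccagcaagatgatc
Ccl7: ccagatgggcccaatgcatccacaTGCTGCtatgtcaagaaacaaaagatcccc
Ccl8: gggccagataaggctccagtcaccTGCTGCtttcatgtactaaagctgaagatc
Ccl11: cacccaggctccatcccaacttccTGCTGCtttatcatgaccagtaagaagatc
Over these 54 bases, pairs of genes were identical at 20 (Ccl7 and Ccl8) to 32 bases (Ccl2 with Ccl8 and with Ccl11). The coding sequence has 97 codons in Ccl7, Ccl8 and Ccl11 and 148 in Ccl2. Coding identity after alignment ran from 49.2% for Ccl2 with Ccl8 to 67.9% for Ccl7 with Ccl11. The longest run of bases that transcripts of any pair share was 23, between Ccl2 and Ccl7.

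Ccl2 and Ccl11 had the highest mean levels of the 4 genes in each fraction. In bulk libraries fewer cells that make a chemokine and less RNA per cell cannot be told apart. Per kilobase of exon, PDGFRα- cells held 205 ± 102 CPM of Ccl2, 142 ± 28.0 of Ccl11, 80.7 ± 38.7 of Ccl7 and 7.83 ± 4.03 of Ccl8. In PDGFRα+ cells the levels per kilobase were 256 ± 47.5 for Ccl11, 175 ± 72.9 for Ccl2, 48.0 ± 26.6 for Ccl7 and 8.81 ± 5.54 for Ccl8. Ccl11 stood above Ccl2 in 1 of 4 PDGFRα- and 3 of 4 PDGFRα+ libraries, so these neighbours in the order were not separated within either fraction. Ccl11 stood above Ccl7 in 3 of 4 PDGFRα- and 4 of 4 PDGFRα+ libraries. Ccl2 was above Ccl7, and Ccl7 above Ccl8, in 4 of 4 libraries of each fraction. The exon length of Ccl2 includes a transcript that keeps an intron. With its protein-coding transcript of 813 bases alone, Ccl2 stood at 287 ± 142 and 245 ± 102 CPM per kilobase, and the number of libraries in which Ccl11 was above it was the same. By CPM, 93.7% of tested genes were below Ccl11 in PDGFRα- cells and 97.2% in PDGFRα+ cells, against 29.7% and 31.8% below Ccl8.

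**Figure D1:**
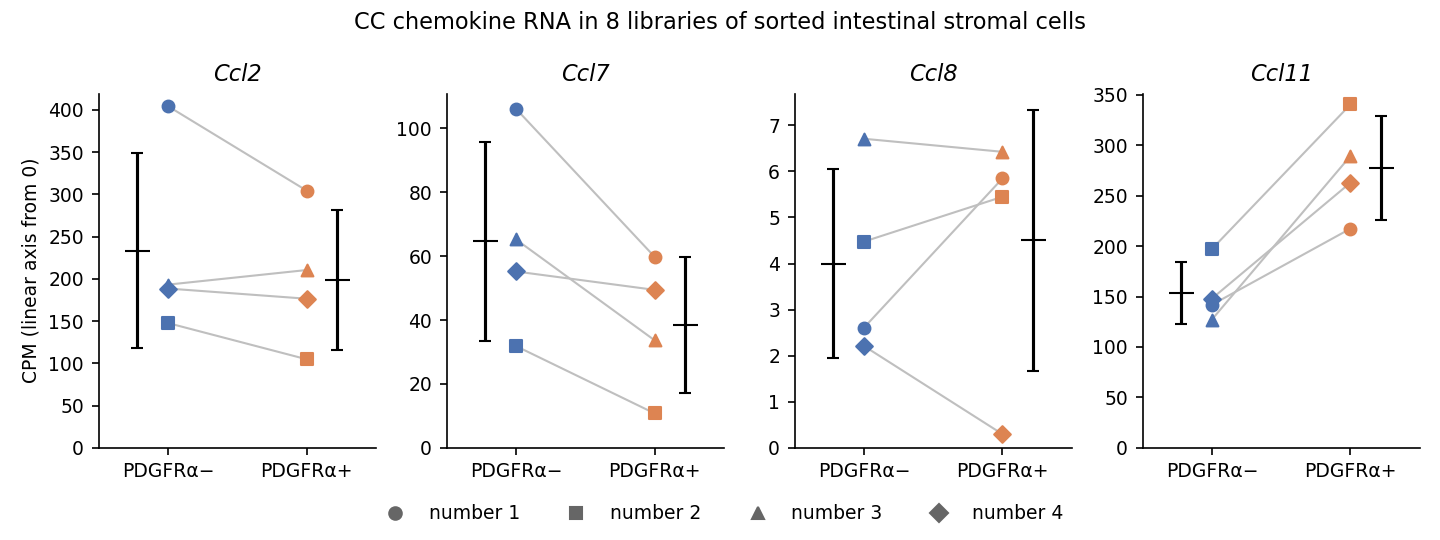
CPM of each gene (vertical axes, linear from 0) in the PDGFRα- and PDGFRα+ libraries. Symbols mark the replicate number, grey lines join libraries of the same number, and black bars give mean ± SD of 4 libraries. The 4 PDGFRα+ values of Ccl11 (217 to 340) sit above all PDGFRα- values (127 to 197), while the ranges of the other genes overlap.

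Ccl11, the eosinophil attractant, was the member whose fractions did not overlap. It stood at 142, 197, 127 and 148 CPM in PDGFRα- libraries 1 to 4 and at 217, 340, 289 and 263 CPM in PDGFRα+ libraries 1 to 4. Every PDGFRα+ library was thus above every PDGFRα- library, a pattern that 2.69% of tested genes showed, beside 2.36% with every PDGFRα+ library below. Means were 154 ± 30.3 and 277 ± 51.4 CPM, a ratio of 1.81, and the log2 fold change was 0.85 ± 0.18 (SE, 95% interval 0.46 to 1.25). The primary test, edgeR without the replicate number, gave an unadjusted p of 3.56e-04 and an adjusted p of 0.0784, which missed the threshold of 0.05. With the replicate number as a block, edgeR gave the same log2 fold change with an SE of 0.12 and an adjusted p of 0.00118. Within numbers 1 to 4 the PDGFRα+ level was 1.53, 1.73, 2.27 and 1.78 times the PDGFRα- level. The authors' deposited table lists a fold change of 1.79 with an adjusted p of 2.61e-08.

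In the primary test 0 of the 4 genes passed, where 0.243% of all tested genes did (0.192% as higher and 0.0511% as lower). At an unadjusted edgeR p under 0.05 there was 1, Ccl11, where 6.95% of all tested genes were. Without the number, DESeq2 called Ccl11 (adjusted p = 0.00478) and limma-voom did not (adjusted p = 0.0620). Over all genes these 2 fits called 1.52% and 0.288%. With the block, 2 of 4 passed, Ccl11 as higher and Ccl7 as lower, where 2.27% of all genes passed (1.34% as higher and 0.933% as lower). The blocked values stand beside the primary ones because the deposited comparison includes the number. Its p-values were within 1% of those from DESeq2 fitted on number plus group for 29253 of 29254 genes, and from DESeq2 fitted on group alone for 3.25%. The members were chosen with these results known, so the count of 2 is a description.

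Ccl7, a ligand of CCR2 and other receptors, lay lower in PDGFRα+ cells within every number, by unequal amounts. PDGFRα- libraries 1 to 4 held 106, 31.9, 65.3 and 55.2 CPM and PDGFRα+ libraries 1 to 4 held 59.8, 10.8, 33.7 and 49.5 CPM. The ranges overlapped, since PDGFRα- library 2 was below 3 of the 4 PDGFRα+ libraries. Within numbers 1 to 4 the PDGFRα- level was 1.77, 2.95, 1.94 and 1.12 times the PDGFRα+ level. A lower PDGFRα+ value in all 4 numbers occurred for 10.2% of tested genes, and a higher one, as for Ccl11, for 10.3%. Means were 64.6 ± 31.0 and 38.5 ± 21.3 CPM. The log2 fold change was -0.75 ± 0.52 (SE, 95% interval -1.93 to 0.43, edgeR adjusted p = 0.913) without and -0.87 ± 0.20 (edgeR adjusted p = 0.0343) with the block. The blocked log2 fold change was -0.89, -0.64, -0.84 and -1.10 without number 1, 2, 3 and 4, with each 95% interval below 0. The call was lost without number 1, 2 or 3 (edgeR adjusted p = 0.159, 0.0798 and 0.208) and held without number 4 (0.00733). The authors' deposited table lists Ccl7 with a fold change of 0.543 and an adjusted p of 0.00488.

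Ccl2, the principal monocyte attractant, differed more between replicate numbers than between fractions. PDGFRα- libraries 1 to 4 held 405, 148, 193 and 189 CPM and PDGFRα+ libraries 1 to 4 held 305, 105, 211 and 177 CPM. Library 1 was the highest and library 2 the lowest in each fraction, with the highest 2.74 and 2.90 times the lowest. Means were 234 ± 116 and 199 ± 83.0 CPM, and the log2 fold change was -0.23 ± 0.38 (SE, 95% interval -1.09 to 0.63, edgeR adjusted p = 0.979). It turned to 0.18 without PDGFRα- library 1. With the block it was -0.22 ± 0.13 (95% interval -0.49 to 0.05, edgeR adjusted p = 0.569). The blocked interval excludes a change of the size fitted for Ccl11 in either direction. The unblocked interval includes a decrease of that size. The spread within fractions was narrower for Ccl11, with a coefficient of variation of 19.8% and 18.5% against 49.6% and 41.7% for Ccl2 and 48.0% and 55.5% for Ccl7.

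Ccl8 was the least abundant member and gave no stable direction. Counts were 64, 89, 86 and 44 over PDGFRα- libraries 1 to 4, and 204, 133, 199 and 4 over PDGFRα+ libraries 1 to 4. In CPM these were 2.61, 4.47, 6.71 and 2.21, and 5.85, 5.45, 6.42 and 0.297. PDGFRα+ library 4 stood far below the rest, with an exact Poisson 95% interval of 0.0810 to 0.761 CPM that covers counting error only. Means were 4.00 ± 2.06 and 4.50 ± 2.83 CPM, and the log2 fold change was 0.18 ± 0.75 (SE, 95% interval -1.42 to 1.79, edgeR adjusted p = 0.995) without and -0.19 ± 0.73 (edgeR adjusted p = 0.964) with the block. Without PDGFRα+ library 4 it was 0.57 (edgeR adjusted p = 0.896). An interval this wide holds changes in either direction larger than that of Ccl11.

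**Figure D2:**
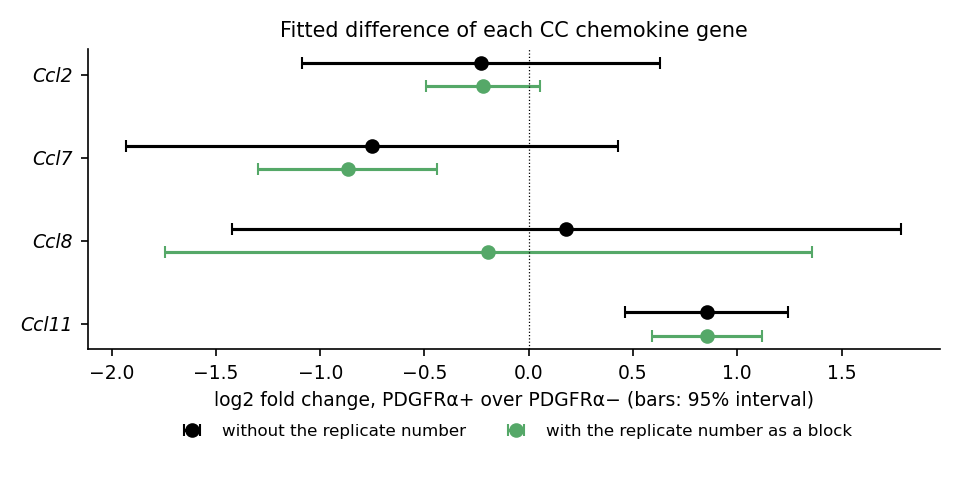
Fitted log2 fold change of each gene, PDGFRα+ over PDGFRα- (horizontal axis), with 95% intervals from edgeR without (black) and with (green) the replicate number as a block. The interval of Ccl11 lies above 0 in both fits, that of Ccl7 lies below 0 with the block alone, and those of Ccl2 and Ccl8 include 0.

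Set against each other within a library, eotaxin took a larger part of the counts of the 4 genes in PDGFRα+ cells at every replicate number. Ccl11 made up 21.6%, 51.7%, 32.4% and 37.6% of them over PDGFRα- libraries 1 to 4, and 37.0%, 73.7%, 53.6% and 53.7% over PDGFRα+ libraries 1 to 4. The fractions overlapped, because PDGFRα- library 2 was above PDGFRα+ library 1. The mean share was 35.8 ± 12.5% and 54.5 ± 15.0%. Ccl2 went from 49.4 ± 9.45% to 37.4 ± 11.9% and Ccl7 from 13.8 ± 3.81% to 7.22 ± 3.74%, each lower in PDGFRα+ cells in 4 of 4 numbers. Shares sum to 100%, so these partly restate the larger share of Ccl11: in number 3 the Ccl2 level was higher in the PDGFRα+ library (211 against 193 CPM) while its share was lower. Ccl8 made up 0.960 ± 0.601% and 0.856 ± 0.538%.

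The ratio of Ccl11 to the sum of Ccl2, Ccl7 and Ccl8 does not depend on library scaling. Its log2 was -1.86, 0.10, -1.06 and -0.73 over PDGFRα- libraries 1 to 4, and -0.77, 1.49, 0.21 and 0.22 over PDGFRα+ libraries 1 to 4. Within numbers 1 to 4 the ratio was 2.12, 2.62, 2.41 and 1.93 times higher in the PDGFRα+ library. The same factors for the Ccl11 level alone were 1.53, 1.73, 2.27 and 1.78. No p is given, since the genes were chosen with their fold changes known. The shift against Ccl7 was 2.72, 5.09, 4.41 and 1.98 times and that against Ccl2 was 2.03, 2.43, 2.09 and 1.90 times. The monocyte attractants were not shifted alike, since the ratio of Ccl2 to Ccl7 was 1.34, 2.09, 2.11 and 1.04 times higher in the PDGFRα+ library. In sum the 3 monocyte attractants stood at 302 ± 145 and 242 ± 102 CPM, lower in PDGFRα+ cells in 4 of 4 numbers, and all 4 genes together at 456 ± 133 and 520 ± 55.8 CPM.

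**Figure D3:**
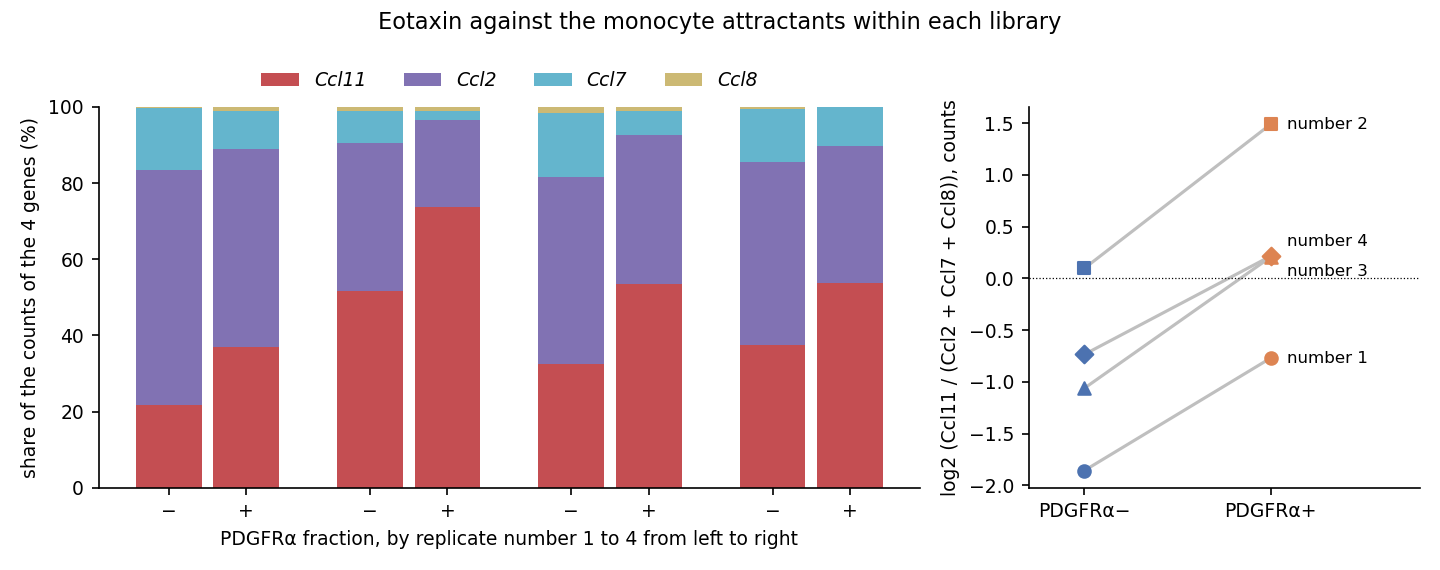
Left, share of the counts of the 4 genes (percent, bars from 0) in each library, PDGFRα- beside PDGFRα+ for replicate numbers 1 to 4. Right, log2 ratio of Ccl11 to the sum of the other 3 genes, with lines joining libraries of the same number. The ratio is higher in the PDGFRα+ library for each of the 4 numbers, by 1.93 to 2.62 times.

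The genes nearest to each member over the 8 libraries differed between the members. Likeness was the root mean square difference of log2 CPM centred on each gene's mean, among genes whose mean level reached 20 CPM. For Ccl11 the nearest of 6248 genes were Aldh1a2, a retinaldehyde dehydrogenase gene (0.13), Cyth3, which encodes an exchange factor for ARF GTPases (0.15), and the phospholipase A2 receptor gene Pla2r1 (0.17). Aldh1a2 stood at 150, 177, 140 and 177 CPM in PDGFRα- libraries 1 to 4 and at 196, 360, 306 and 267 CPM in PDGFRα+ libraries 1 to 4, with library 2 highest in the PDGFRα+ fraction, as for Ccl11. Their difference between the fractions follows from being chosen for likeness to Ccl11, so no test of it is given.

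For Ccl2 the nearest genes were Asap3, which encodes a GTPase-activating protein for ARF proteins (0.18), the pericyte marker Rgs5 (0.19) and the shisa family gene Shisa3 (0.22). Rgs5 stood at 1467, 718, 785 and 850 CPM in PDGFRα- libraries 1 to 4 and at 1110.5, 561, 925 and 681 CPM in PDGFRα+ libraries 1 to 4. As for Ccl2, library 1 was the highest and library 2 the lowest in each fraction. The sum of the other 5 pericyte markers did not show this order. It was 338 and 328 CPM in the libraries numbered 1 and 297 to 413 CPM in the other 6. Pdgfrb was the largest part of this sum in every library. It was highest in library 2 of each fraction (303 and 287 CPM), so the sum mainly follows Pdgfrb. Of these 5, Abcc9 had the order in PDGFRα+ libraries 1 to 4 (57.9, 16.1, 27.5 and 37.9 CPM). In PDGFRα- libraries 1 to 4 it did not (83.2, 75.4, 75.6 and 102 CPM). Kcnj8 had the order in part, highest in PDGFRα- library 1 (13.9 CPM) and, among PDGFRα+ libraries, lowest in library 2 (0.901 CPM). Cspg4 and Notch3 had it in neither fraction. The summed CPM of 7 smooth muscle markers was 356 and 452 in the libraries numbered 1 and 968 to 1784 in the other 6. The part of pericytes or smooth muscle cells in the level of Ccl2 was not tested.

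For Ccl7 the nearest genes were the folate enzyme gene Aldh1l2 (0.28), the imprinted gene Mest (0.31) and Hexim1, an inhibitor of the elongation factor P-TEFb (0.31). Ccl2 was at 0.52 from Ccl7 and ranked at 38 of 6248 genes, while Ccl11 ranked at 6039. Seen from Ccl2, Ccl7 ranked at 1051. For scale, a gene with equal levels in all libraries would lie at 0.56 from Ccl2 and at 0.91 from Ccl7. For Ccl8 the nearest genes were Trim30a (0.57), Ifit1 (0.68) and Ddx60 (0.83), all known as genes induced by interferon. Ifit1 stood at 9.65 CPM in PDGFRα- library 4 and 6.24 CPM in PDGFRα+ library 4, and at 21.2 to 39.5 CPM in the other 6 libraries. Trim30a was at 16.4 and 2.6 CPM in the libraries numbered 4 and at 22.3 to 40.6 CPM elsewhere. The Ccl8 profile is dominated by PDGFRα+ library 4, so low values there are part of what chose these genes and are a description.

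**Figure D4:**
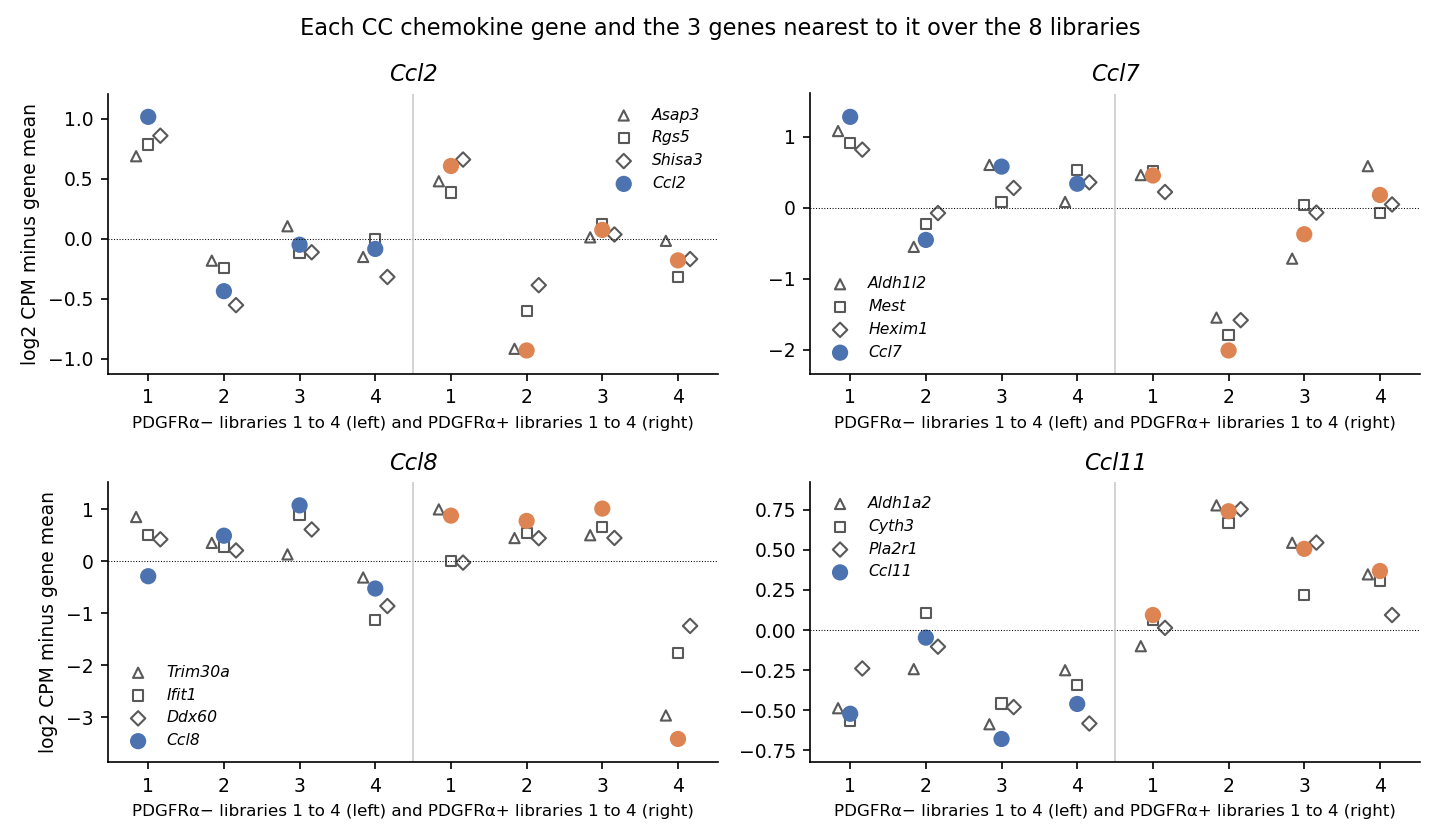
Log2 CPM minus the gene's mean over 8 libraries (vertical axes) for each CC chemokine gene (filled, blue for PDGFRα- and orange for PDGFRα+) and the 3 genes nearest to it (open symbols). Ccl2 and Rgs5 are highest in the libraries numbered 1, Ccl8 and Trim30a are lowest in PDGFRα+ library 4, and Ccl11 and Aldh1a2 are highest in PDGFRα+ library 2.

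Other CC chemokine genes were expressed at low levels. Of 18 listed, 7 could be tested and none passed edgeR in either fit. An unadjusted p under 0.05 was reached by 2 of them with the block and 1 without, DESeq2 called 1 with the block and limma-voom called 0. Over all tested genes, edgeR gave an unadjusted p under 0.05 to 6.95% without and 11.7% with the block. With the block DESeq2 called 4.58% and limma-voom 4.02%, and without it 1.52% and 0.288%. The counts for this and the following lists stand against those shares and the 2.27% called by blocked edgeR. Those with a mean of at least 1 CPM were Ccl25 (6.01 ± 5.36 and 11.9 ± 3.91 CPM), Ccl21a (4.71 ± 3.30 and 5.43 ± 6.06), Ccl6 (3.32 ± 3.21 and 1.03 ± 1.16), Ccl27a (1.44 ± 0.277 and 2.54 ± 2.27), Ccl24 (2.93 ± 2.7 and 0.302 ± 0.352), Ccl9 (1.29 ± 1.66 and 0.80 ± 0.812) and Ccl1 (1.57 ± 2.65 and 0.453 ± 0.818). Exons of Ccl25 overlap Elavl1 and those of Ccl27a overlap Il11ra1 on the other strand, and Ccl21a has near-identical copies. Ccl24, another eotaxin gene, had counts of 24, 21, 38 and 134 over PDGFRα- libraries 1 to 4, and 23, 0, 17 and 0 over PDGFRα+ libraries 1 to 4. Its fitted log2 fold change of -3.21 ± 1.39 (SE, edgeR adjusted p = 0.653) had the opposite sign to that of Ccl11, and its highest count was in PDGFRα- library 4, where Ptprc, the CD45 gene, had 488 counts. The part of leukocytes in that count was not tested.

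Receptors of these ligands were near the floor, while 2 of the 4 enzyme genes listed were abundant. Of 5 receptor genes 1 could be tested, and Ccr3, the eotaxin receptor, had counts of 0, 0, 34 and 97 over PDGFRα- libraries 1 to 4, and 0 for each PDGFRα+ library. Mmp2, whose product cuts CCL7, stood at 966 ± 71.0 and 1109 ± 182 CPM and Mmp14, whose product activates MMP2, at 708 ± 96.0 and 673 ± 52.4 CPM. Dpp4, named after its values were seen, encodes a peptidase that trims CCL11 and stood at 6.20 ± 3.78 and 2.18 ± 1.61 CPM. The gelatinase gene Mmp9, likewise named after its values were seen, stood at 7.94 ± 12 and 0.520 ± 0.389 CPM, with 510 of its counts in PDGFRα- library 4. None of the 4 enzyme genes passed edgeR in either fit, though unadjusted p-values under 0.05 numbered 1 without and 2 with the block. DESeq2 and limma-voom each called 1 of the 4 with the block and 0 without. Atypical receptors, which take up chemokines without signalling through G proteins, were listed by class, not by binding to these 4 ligands. The most abundant were Ackr4 at 60.6 ± 32.7 and 42.9 ± 13.8 CPM and Ackr3 at 11.5 ± 4.01 and 25.2 ± 4.69 CPM. Ackr1 (1.07 ± 1.37 and 0.596 ± 0.701 CPM) and Ackr2 (1.95 ± 1.99 and 0.00807 ± 0.0161 CPM), named after their values were seen, were near the floor. Neither Ackr4 nor Ackr3 passed edgeR (adjusted p = 0.922 and 0.211 without, 0.490 and 0.0522 with the block). Every PDGFRα+ library was above every PDGFRα- library for Ackr3, as for 2.69% of tested genes. Of the 4 atypical receptor genes tested, DESeq2 called 1 in either fit and limma-voom 1 with the block.

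In pathways known to induce these chemokines, edgeR called no listed gene without the block. With it, calls went in both directions, where 1.34% of all genes were called higher and 0.933% lower. Of 14 NF-κB response genes, Vcam1, an adhesion molecule gene, was higher and Nfkbiz, an NF-κB cofactor gene, lower with the block. Their log2 fold changes were 0.73 and -0.80 (edgeR adjusted p = 0.0165 and 0.0381). An unadjusted p below 0.05 was found for 2 of the 14 without and 4 with the block, and DESeq2 and limma-voom each called 3 with the block and 0 without. The median of the 14 log2 fold changes was -0.06, against -0.01 over all genes. Of 11 interferon-γ response genes, the chemokine gene Cxcl9 was higher and the signalling inhibitor gene Socs3 lower with the block (log2 fold change 1.09 and -0.62, with edgeR adjusted p = 0.00633 and 0.0280). Of the 11, edgeR gave 0 without and 3 with the block an unadjusted p below 0.05, and DESeq2 and limma-voom each called 0 without and 3 with it. None of 7 tested genes of the IL-4 and IL-13 response passed edgeR. Unadjusted p-values below 0.05 numbered 0 without and 2 with the block, and limma-voom called 1 with it. Its most abundant genes were Postn, for the matrix protein periostin (1039 ± 368 and 848 ± 413 CPM), and the kinase gene Jak1 (580 ± 195 and 582 ± 243 CPM), whose exons overlap Raver2 on the other strand. Of the receptor genes of that axis, Il4ra stood at 146 ± 17.9 and 148 ± 21.8 CPM and Il13ra1 at 32.7 ± 13.7 and 38.6 ± 12.1 CPM, while Il13ra2 was at 2.54 ± 1.26 and 2.51 ± 1.97 CPM and Il2rg, which shares exon bases with Gm20489, had 0 counts in every library. These 4 were named after their values were seen. Of 13 tested receptors of inducing cytokines, Il6st, the shared receptor chain of the IL-6 family, was lower with the block (-0.47, edgeR adjusted p = 0.0403). Of the 13, 2 without and 3 with the block had an unadjusted p below 0.05, and DESeq2 and limma-voom each called 2 with the block and 0 without. Of 3 tested eosinophil survival and recruitment partners, edgeR called 1 with the block, Il33, which encodes an alarmin that acts on type 2 immune cells. Il33 stood at 66.8 ± 22.3 and 117 ± 32.7 CPM and was higher with the block (log2 fold change 0.84, edgeR adjusted p = 0.00497). Its unblocked edgeR adjusted p was 0.398. For 2 of the 3, edgeR gave an unadjusted p below 0.05 in either fit. With the block DESeq2 called 2 and limma-voom 1. Of 4 monocyte and macrophage survival partners, edgeR, DESeq2 and limma-voom called 0 in either fit. The most abundant were Cxcl12 (733 ± 244 and 651 ± 72.5 CPM) and Csf1 (171 ± 23.0 and 193 ± 21.2 CPM).

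Immediate early genes, which cells switch on within minutes of stress or growth factor signals, had lower fitted levels in PDGFRα+ cells, and edgeR with the block called 6 of 18. None of the 18 had a positive log2 fold change without the block, with a median of -0.53 against -0.01 over all genes. Unblocked, edgeR, DESeq2 and limma-voom each called 0, and edgeR gave 7 an unadjusted p below 0.05. The 6 called with the block, all lower, were Fos, Jun, Junb, Dusp1, Klf4 and Btg2, with log2 fold changes of -0.53 to -0.78, where 0.933% of all genes were called lower. With the block 15 had an unadjusted p below 0.05, DESeq2 called 12 and limma-voom 7. The summed CPM of the list was 18396 to 22987 in PDGFRα- and 7757 to 18758 in PDGFRα+ libraries, and lowest in PDGFRα+ library 2, where Ccl7 was lowest too. Exons of Jun, Junb and Dusp1, like those of Vcam1, Dpp4 and Ackr4, overlap a gene on the other strand, and whether the counting used strand is not given. Among PDGFRα- libraries, number 4 had the highest sum and the third highest Ccl7. Whether this list has a part in the Ccl7 values was not tested.

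Markers of other cells were checked because leukocytes make and bind these chemokines. Fibroblast markers had the largest sum in every library, with 120276 to 170173 CPM for 9 genes in PDGFRα- and 90714 to 115833 CPM in PDGFRα+ libraries. Most of it was collagen RNA, with Col3a1 at 64549 ± 8543 and 45350 ± 3564 CPM, followed by Col1a1 and Col1a2. Thy1, named after its values were seen, stood at 1.34 ± 1.27 and 2.43 ± 1.05 CPM. With the block, edgeR called these 3 collagen genes lower and Pdpn higher, where 0.933% of all genes were called lower and 1.34% higher. Without the block it called 0 of the 9. Ptprc had 190 and 488 counts in PDGFRα- libraries 3 and 4 and 16 to 92 in the other 6. These were also the PDGFRα- libraries with counts of Ccr3. The summed CPM of 14 monocyte and macrophage markers was 107 to 218 in PDGFRα- and 57.8 to 126 in PDGFRα+ libraries, and that of 8 eosinophil markers 0.402 to 5.98 and 0.123 to 1.20. The summed level of the monocyte attractants was highest in PDGFRα- library 1, at 513 CPM, where Ptprc had 35 counts, and it was 265 and 246 CPM in PDGFRα- libraries 3 and 4. Endothelial markers summed to 778 CPM in PDGFRα- library 4 and to 73.0 to 184 CPM in the other 7.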

How the data were processed

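RNA of sorted stromal cells was sequenced after library preparation with a stranded total RNA kit for low input, per the labels' protocols. The submitters' processing notes list DESeq2, featureCounts 2.0.1, STAR 2.7.3a and cutadapt 3.4, and build GRCm38. The sources used here give no settings, strand use or annotation release. The authors deposited raw counts per gene, a score (counts divided by a size factor, rounded), the mean signal over libraries, and their comparison as a ratio, a log2 fold change and a p-value. The table's raw counts were used here, and 0 rows named no gene.

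Primary test: edgeR 4.0.16 in R 4.3.3 (quasi-likelihood, robust, TMM, filterByExpr), fraction as the only term, Benjamini-Hochberg adjustment over 15643 genes, threshold 0.05. It was tested on simulated data. Alternatives were the replicate number as a block, DESeq2 1.42.0, limma-voom (limma 3.58.1), other size factors, no filter, and each library left out. Intervals use 95% coverage. Deviations from fraction means correlated at 0.02 to 0.25 between same-numbered libraries, so one number missed the 0.1 set for pairing. The genes, lists and tests were chosen with earlier results of these data known. Named besides the 4 genes were CC chemokines of at least 1 CPM, list genes past the threshold (otherwise the 2 most abundant), and the 3 genes nearest to each member on log2 CPM (prior count 2). Amplified reads are not independent molecules, so counting intervals are too narrow.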

Additional observations from a re-analysis of the deposited data

Results flagged for a closer look

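The Ccl8 level of PDGFRα+ library 4, 0.297 CPM from 4 counts, stood apart from the other 3 PDGFRα+ libraries (5.45 to 6.42 CPM). Its gap to the nearest of them was 0.841 of the range of the fraction, above the 95% limit of Dixon's test for 4 samples. Of 12 sets of 4 values checked (each member's CPM, the Ccl11 share and the log2 ratio, in each fraction) 1 was singled out, and chance singles out about 1 in 20. The same library held 3539 counts of Ccl11 and 13014118 counts in all. The part of depth in the low Ccl8 count was not tested.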

How the results depend on the processing

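Ccl11 was higher in PDGFRα+ cells under each alternative run. Past the threshold it had log2 fold changes of 0.85 with the replicate block, 0.84 by DESeq2 without and 0.84 with it, 0.84 by limma-voom with it (chosen after seeing the data), and 0.86 without a filter on low counts. With the replicate block and without both libraries of number 1, 2, 3 and 4 it was 0.93, 0.88, 0.74 and 0.86. Leaving out 1 library at a time from the unpaired fit gave 0.74 to 1.00 (adjusted p = 0.0744 to 0.299). Ccl7 was lower throughout, and past the threshold at -0.87, -0.88 and -0.81 with the replicate block by edgeR, DESeq2 and limma-voom and at -1.10 with the block without number 4. It ran from -1.04 to -0.39 with 1 library left out. Ccl2 passed the threshold nowhere and ran from -0.51 to 0.18 with 1 library left out. Ccl8 changed sign without being called. It was -0.19 with the replicate block, -0.21 by DESeq2 with it and 0.30 by limma-voom with it. Without number 1, 2, 3 and 4 it was -0.72, -0.38, -0.27 and 0.46 by edgeR with the block. It ran from -0.033 to 0.57 with 1 library left out. The difference in the Ccl11 share, 18.7 percentage points, was 12.3 to 24.5 with 1 library left out, 19.0 per exon length and 17.9 per length of the coding transcript (added later). The cause of these differences was not tested.

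Over all genes 38 passed without the block. The count was 355 with the replicate block, 270 by DESeq2 without and 795 with it, 629 by limma-voom with it and 277 without a filter. With the block it was 196, 281, 99 and 300 without number 1, 2, 3 and 4, and unpaired it was 7 to 49 with 1 library left out. For Ccl8, counts of 4 to 204 per library limit what a difference can show.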
